A study of Bos taurus with 3 samples.

Results

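Cells that carried transcripts of replication and were limited in those of 3 genes of division were collected from a single-cell map of the rumen epithelium of dairy cows. The cells were chosen by their own UMI counts of 6 genes. A cell was taken, and is called S/G2 here, when it held at least 1 UMI (unique molecular identifier, the count of 1 captured RNA molecule) of *RRM2*, at least 2 UMIs of *TOP2A* and *MKI67* together, and fewer than 10 UMIs of *CCNB1*, *CDC20* and *UBE2C* together. This gave 631 of 20728 cells, or 3.04%. The tissue was the ventral sac of 3 adult Holstein cows in milk, with 1 library per cow, 1 condition and no treatment. It had been taken apart with trypsin, collagenases and dispase, and the study kept only cells it had judged epithelial, so these are cells that survived dissociation. Cow and library cannot be told apart.

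*RRM2* is the regulated subunit of ribonucleotide reductase, which makes the deoxynucleotides for DNA synthesis. *TOP2A* untangles the copied strands and *MKI67* coats mitotic chromosomes, and both accumulate through S phase and G2. *CCNB1* drives entry into mitosis, while *CDC20* and *UBE2C* belong to the ubiquitin ligase machinery that ends it. In a stratified epithelium such as that of the rumen, dividing cells lie in and just above the basal layer, and cells that move upward leave the cycle and begin to differentiate.

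The S/G2 cells were set against 3 other classes of the same cows. The class with 0 UMIs of all 6 genes, called the none class, held 16082 cells. The *RRM2*-only class, with *RRM2*, at most 1 UMI of *TOP2A* and *MKI67* and fewer than 10 of the other 3 genes, held 709 cells. The G2/M-high class, with at least 10 UMIs of *CCNB1*, *CDC20* and *UBE2C* and at least 2 of *TOP2A* and *MKI67*, held 647 cells. The other 2659 cells entered the fit as 1 more class. UMIs were summed per cow and class, and levels are given as CPM, the UMIs of a gene scaled to a common library size. The 6 genes made the classes and were not tested. Genes that follow them through the cycle had to differ between the classes, so for the cell cycle lists the counts of genes are a description. The tests give the size of a difference against a spread estimated over all classes and moderated between genes. How well the 3 cows match is read from the values of each cow.

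The S/G2 cells made up 1.19% of the cells of cow 1 (40 of 3369, 95% exact Clopper-Pearson interval 0.850 to 1.61%), 1.00% of cow 2 (74 of 7401, 0.786 to 1.25%) and 5.19% of cow 3 (517 of 9958, 4.76 to 5.65%). The mean was 2.46% ± 2.37 (SD, n = 3). Cow 3 alone held 81.9% of the S/G2 cells, and its share stood apart from those of the other two cows, whose intervals overlapped. The *RRM2*-only and G2/M-high shares were also highest in cow 3. Cow 1 had 0.471 S/G2 cells for each G2/M-high cell, against 0.987 in cow 2 and 1.06 in cow 3. The intervals cover counting error only.

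**Figure D1:**
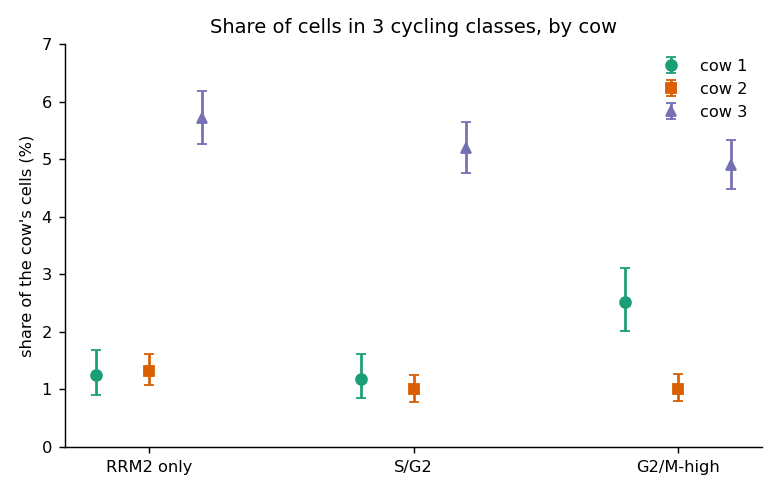
Share of each cow's cells (%, vertical axis) in the *RRM2*-only, S/G2 and G2/M-high classes, with 1 point per cow and exact 95% Clopper-Pearson intervals as bars. In S/G2, cow 3 lies at 5.19% and cows 1 and 2 at 1.19% and 1.00%.

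Depth differed between the classes, in part by the rule itself, since a cell with more UMIs is more likely to meet it and less likely to hold 0 UMIs of all 6 genes. The median S/G2 cell of cows 1, 2 and 3 held 16124, 21232 and 15182 UMIs, against 9506, 11582.5 and 8962 in the none class. It showed 3114, 3117.5 and 2831 genes, against 2043, 2048.5 and 1890. The authors had removed the cells with the most genes, the highest that was left having 3998, and 8.40% of the S/G2 cells lay above 3500 genes, against 1.08% of the none class and 24.7% of the G2/M-high class. In cows 1, 2 and 3 these shares were 27.5%, 17.6% and 5.61% for S/G2 and 41.2%, 37.3% and 19.9% for G2/M-high. In the none class they were 2.15%, 1.47% and 0.276%. How many cells of each class the authors' limit took away was not tested. The median mitochondrial share of S/G2 cells in cow 1, 24.0%, stood apart from the 12.1% and 12.7% of the other two, as it did in the none class, where the shares were 16.3%, 10.7% and 12.3%. Over all cells, 35 barcode sequences occurred in more than 1 library, and 2 S/G2 cells bore one.

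The S/G2 class has no sharp edge. It held 100 cells with exactly 2 UMIs of *TOP2A* and *MKI67*, and 158 cells with exactly 1 fell just outside. On the other side, 46 cells had 8 or 9 UMIs of *CCNB1*, *CDC20* and *UBE2C*, and 33 cells with 10 or 11 fell outside. *RRM2* was at exactly 1 UMI in 160 cells, and 819 cells that met the other conditions had none. Within the class the median *RRM2* count was 3 UMIs. The pooled *RRM2* level of 2.20 UMIs per 10000 lay nearer to the 1.85 of the *RRM2*-only class than to the 0.213 of the G2/M-high class. In cows 1, 2 and 3 it was 1.99, 1.86 and 2.29 in S/G2 and 1.03, 1.40 and 2.02 in the *RRM2*-only class. The gap was thus widest in cow 1. *TOP2A* stood at 3.12 per 10000, between 0.114 in the *RRM2*-only and 8.24 in the G2/M-high class. *UBE2C* was detected in 68.0% of the S/G2 cells, *CDC20* in 41.8% and *CCNB1* in 21.6%, and 146 cells had none of these 3. In cows 1, 2 and 3 *UBE2C* was detected in 67.5%, 74.3% and 67.1% of them. *CDC20* was in 52.5%, 64.9% and 37.7%, and *CCNB1* in 37.5%, 35.1% and 18.4%. These values follow from the rule and are a description.

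*PCLAF* and *HMGB2* are markers that the rule did not use, chosen with earlier results of these data known. As genes of the cycle they had to exceed the none class. Their levels are thus a description and do not test the label of late S phase to early G2. *PCLAF* (ENSBTAG00000039462), the *PCNA*-associated factor that rides on the replication clamp, measured 225, 303 and 315 CPM in the S/G2 cells of cows 1, 2 and 3 and 1.32, 1.19 and 3.78 CPM in the none class. Both sets of values lay far apart in every cow, and the log2 fold change was 7.09 ± 0.23 (SE, adjusted p = 1.64e-18 by edgeR). The SE of this and the other log2 differences was derived from the F statistic of the fit. It draws on the spread over all classes and is not the spread between the 3 cows. *PCLAF* was also higher than in the *RRM2*-only cells, by 2.25 ± 0.22, and than in the G2/M-high cells, by 1.35 ± 0.20, although neither of these calls held without the block (edgeR adjusted p = 0.053 and 0.33). After every cell was thinned to 5000 UMIs, which left out 9 S/G2 cells and 1319 of the none class, *PCLAF* was found in 64.1%, 55.6% and 75.3% of the S/G2 cells of the 3 cows and in 0.499%, 0.527% and 1.65% of the none class. Before thinning the shares were 92.5%, 90.5% and 94.8% against 1.28%, 1.22% and 3.07%.

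*HMGB2* (ENSBTAG00000015101), a DNA-bending protein of the high-mobility group, measured 399, 544 and 459 CPM in S/G2 cells and 26.6, 35.0 and 20.3 CPM in the none class, which is 4.07 ± 0.19 on the log2 scale (edgeR adjusted p = 1.42e-15). It exceeded the *RRM2*-only class by 2.14 ± 0.20. In the G2/M-high class it measured 564, 630 and 690 CPM, more than in S/G2 in each cow, with a log2 difference of -0.44 ± 0.18 that did not pass (edgeR adjusted p = 0.0918). This difference was called lower without cow 2, with no filter, with the 2 classes alone and under the limit of 5 UMIs of *CCNB1*, *CDC20* and *UBE2C*. Both markers were thus high in S/G2, *PCLAF* above both cycling neighbours and *HMGB2* close to the G2/M-high cells.

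**Figure D2:**
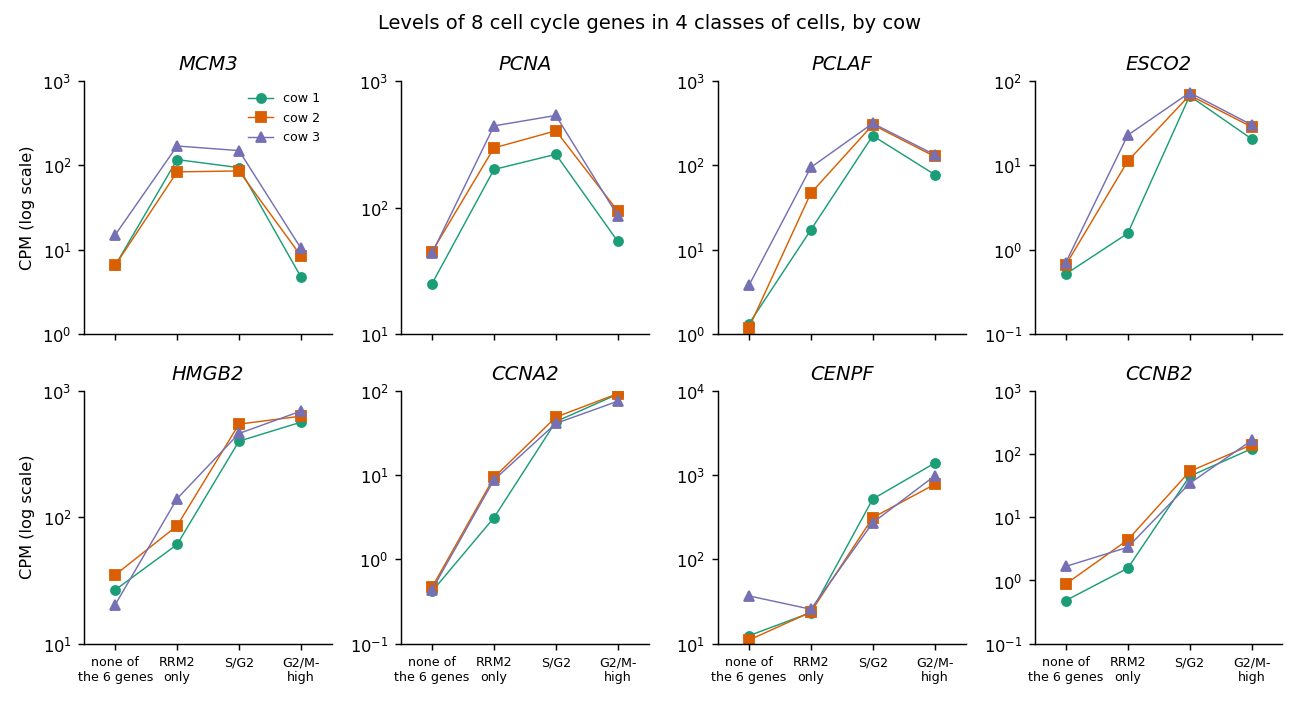
Levels of 8 cell cycle genes (CPM, log scale) in the none, *RRM2*-only, S/G2 and G2/M-high classes, with 1 line per cow. *MCM3* and *PCNA* are high in the *RRM2*-only and S/G2 classes, *PCLAF* and *ESCO2* are highest in S/G2, and *HMGB2*, *CCNA2*, *CENPF* and *CCNB2* lie higher still in the G2/M-high class in each cow.

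Over all 10631 genes tested against the none class, 17.1% were called higher in S/G2 cells and 16.2% lower, at an edgeR adjusted p below 0.05 and a log2 fold change beyond 0.36, with a median over all genes of -0.05. Without the cow as a block, 753 genes were higher and 296 lower in place of 1815 and 1718, so 71.8% of the calls were higher in place of 51.4%. Against the *RRM2*-only class 3.57% were called higher and 2.29% lower, and against the G2/M-high class 7.42% and 6.78%. With a log2 fold limit of 1 the shares were 6.72% and 4.89% against the none class, 1.84% and 0.386% against the *RRM2*-only class, and 3.05% and 1.64% against the G2/M-high class. Without cow 3, which held most of the cells, 1135 genes were higher and 1040 lower against the none class, of 8027 tested, and 281 and 223 against the G2/M-high class in place of 789 and 721. Against the *RRM2*-only class 243 genes were lower, and 131, 129 and 139 without cow 1, 2 or 3. All 3 comparisons share the S/G2 sums.

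The machinery that licenses and fires replication origins was high in S/G2 cells. The *MCM2* to *MCM7* helicase is loaded on origins in G1 by *ORC1*, *CDC6* and partners, and is set moving by *CDC45*, the GINS complex and the kinase *DBF4*-*CDC7*. All 24 tested genes of 25 on this list were higher than in the none class (background 17.1%), with a median log2 fold change of 2.81. *MCM3* measured 94.0, 85.8 and 150 CPM in S/G2 cells, 117, 83.7 and 170 CPM in *RRM2*-only cells and 4.77, 8.46 and 10.4 CPM in G2/M-high cells. S/G2 and *RRM2*-only values overlapped, while the G2/M-high values lay below all others, with a log2 difference of 3.88 ± 0.16 from S/G2 (edgeR adjusted p = 1.02e-14).

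Most of the list behaved in that way. Against the *RRM2*-only class 3 genes were higher and 1 lower (3.57% and 2.29% over all genes). Against the G2/M-high class 21 were higher and 1 lower (7.42% and 6.78% over all genes). With the rule applied after thinning, 1 was higher and 5 were lower than in the *RRM2*-only class (273 and 165 of 11265 over all genes). *MCM2*, *MCM3* and *MCM6* were among the lower ones at -0.56, -0.64 and -0.81. In such calls the thinned counts only chose the classes, and the sums kept all UMIs. With the rule on unthinned counts *MCM5* was the lower one, 0.52 ± 0.11 below the *RRM2*-only class on the log2 scale (80.9, 103 and 168 CPM against 125, 157 and 226 CPM), a call lost under the limit of 5 UMIs. *MCM2*, *MCM4* and *MCM6* differed from that class by -0.13 ± 0.15, 0.09 ± 0.13 and -0.37 ± 0.14, none of which passed, and exceeded the G2/M-high class by 3.13, 3.01 and 3.62. *CLSPN*, the adaptor through which stalled forks signal, was an exception and exceeded both neighbours, by 0.91 ± 0.17 and 1.93 ± 0.18, the former not called after thinning (0.59). *DBF4* went the other way from the helicase, with 1.53 ± 0.22 more than in *RRM2*-only cells and 0.85 ± 0.16 less on the log2 scale than in G2/M-high cells (-0.85), where the call was lost without cow 3 (-0.55) and after thinning (-0.29). *CDC6* reached 14.4, 10.0 and 23.5 CPM in S/G2 cells and rested on 7 UMIs in all G2/M-high cells. *TICRR* had 42 UMIs in the S/G2 cells and 1 UMI in the whole none class, so no fold is given for it. *ORC2* had the smallest difference from the none class, 0.44, was not called against *RRM2*-only or G2/M-high cells, and lost its call against the none class without the block.

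Genes of the fork itself followed the same order. All 26 of this list were higher than in the none class (17.1% over all genes), with a median of 2.05. Against the G2/M-high class 22 were higher (7.42% over all genes), and against the *RRM2*-only class 5 were (3.57%). The last number was 3 with DESeq2, without cow 1, without cow 2, in cells of 10000 to 25000 UMIs, with the 2 classes alone and after thinning. Over all genes 273 to 371 were higher than in that class at these settings. *PCNA*, the sliding clamp of the polymerases, measured 264, 404 and 534 CPM in S/G2 cells, 25.0, 44.8 and 43.6 CPM in the none class and 54.0, 93.7 and 86.0 CPM in the G2/M-high class. Its log2 fold changes were 3.40 ± 0.10 and 2.41 ± 0.11, and the difference of 0.35 ± 0.10 from the *RRM2*-only class stayed under the fold limit, though it was called higher without cow 3 (0.46) and under the limits of 5 UMIs (0.52) and of mitochondrial share (0.40). *CHTF18*, of the alternative clamp loader, was 4.25 above the none class, and *RFC1*, the large subunit of the main loader, was lowest in the list at 0.40, a call lost without the block. *POLE* had only 17 UMIs in S/G2 cells. *PCLAF* had the largest difference from the *RRM2*-only class in this list, followed by the nuclease and helicase *DNA2* at 1.17, a call lost under 7 of the alternatives.

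Of 14 tested genes that supply deoxynucleotides, 9 were higher than in the none class and 0 lower (17.1% and 16.2% over all genes). Against the G2/M-high class 6 were higher (7.42% over all genes). *RRM1*, the partner of *RRM2*, measured 167, 172 and 167 CPM against 18.7, 19.3 and 23.7 CPM in the none class (log2 fold change 2.99 ± 0.11, edgeR adjusted p = 1.65e-17), and the cows hardly differed. *DTYMK*, which phosphorylates thymidylate, differed by 3.40 ± 0.12 and *DCK*, the deoxycytidine kinase of salvage, by 3.09 ± 0.18. *RRM1*, *DCK* and *DUT*, which removes dUTP, were the 3 genes higher than in *RRM2*-only cells (3.57% over all genes), by 0.58, 1.18 and 0.85. Without the block 0 genes of the list were (135 of 10631 over all genes). After thinning 1 was higher and 1 lower (273 and 165 of 11265 over all genes). *GUK1*, *NME1* and *PNP*, which also serve RNA nucleotides, differed from the none class by 0.10, -0.05 and 0.03, which did not pass, and *NME2* by 0.17, which stayed under the fold limit.

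Chromatin assembly genes, which dress the new DNA with histones and copy its marks, were all higher than in the none class. They were 16 of 16 (17.1% over all genes), with a median of 2.09. *UHRF1*, which guides the maintenance DNA methylase, measured 145, 168 and 189 CPM against 2.51, 3.58 and 7.12 CPM (log2 fold change 5.21 ± 0.18), and *ASF1B* and *CHAF1A*, both histone chaperones, differed by 5.25 and 3.84. *SSRP1* had the smallest difference, 0.55, which was not called without the block. Against G2/M-high cells 12 of 16 were higher (7.42% over all genes), *CHAF1B* most at 4.45 ± 0.37. *EZH2*, the methylase of histone H3 lysine 27, was higher than in both neighbours, by 1.31 in each. The list of histone variants and high-mobility group proteins held 21 symbols, some being old and new names of 1 gene, such as *H2AFZ* and *H2AZ1*. Of these symbols 13 were found in the data. Of 12 tested genes 8 were higher than in the none class and the same number than in the *RRM2*-only class (17.1% and 3.57% over all genes). *H2AFZ*, a variant of histone H2A, measured 677, 885 and 784 CPM against 94.3, 179 and 128 CPM in the none class, a log2 fold change of 2.57 ± 0.10. *HMGB3* differed by 1.95, and the smallest difference, -0.08 ± 0.06, was that of *HMGA1*, which did not pass.

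Among regulators of the G1/S transition and S phase, 17 of 19 were higher than in the none class and 0 lower (17.1% and 16.2% over all genes). The median was 2.78. *E2F8*, a repressor that shuts down the genes of the other E2F factors late in S phase, measured 22.2, 23.6 and 22.3 CPM in S/G2 cells and rested on 8 UMIs in the none class, with a log2 fold change of 8.54 ± 0.36. It exceeded the *RRM2*-only class by 1.45 ± 0.28 and the G2/M-high class by 1.78 ± 0.28, the former call being lost after thinning (0.85). *CCNA2*, the cyclin of S phase and G2, measured 43.1, 48.6 and 41.0 CPM against 0.418, 0.469 and 0.437 CPM in the none class (6.56 ± 0.22). Both *CCNA2* and *CDK1* were above the *RRM2*-only class, by 2.34 and 2.89, and below the G2/M-high class, with differences of -0.95 and -0.87. The latter call of *CDK1* was lost with DESeq2 and without cow 3 (-0.46). *FBXO5*, an inhibitor of the mitotic ligase, was above both neighbours, by 2.32 ± 0.26 and 0.91 ± 0.21, and so was *MYBL2*, by 0.96 and 1.89. *MYBL2* lost the call against *RRM2*-only cells without cow 1 (0.78) and after thinning. *CCNE2*, the cyclin that opens S phase, differed from the *RRM2*-only class by 0.35 ± 0.28, which did not pass, and from the G2/M-high class by 4.79 ± 0.49. *TFDP2* had the smallest difference from the none class, -0.02, and did not pass.

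Repair by homologous recombination and the fork checkpoint formed another high group, with 19 of 20 tested genes above the none class (median 3.00), 14 above the G2/M-high class and 7 above the *RRM2*-only class. Over all genes these shares were 17.1%, 7.42% and 3.57%. *RAD51AP1*, an accessory factor of homologous recombination, measured 35.2, 29.3 and 36.6 CPM in S/G2 cells, 9.37, 8.75 and 14.2 CPM in *RRM2*-only cells and 12.7, 11.1 and 16.0 CPM in G2/M-high cells. No value of either neighbour reached the S/G2 range, and the log2 differences were 1.50 ± 0.17 and 1.28 ± 0.15. *EXO1* and *FANCD2* were 5.88 and 5.80 above the none class. *UBE2T*, the smallest, differed by 0.21 ± 0.13, which did not pass.

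Cohesin holds the sister strands together and condensin folds them. In the list of both complexes and their regulators 13 of 15 genes were higher than in the none class (17.1% over all genes). The median was 3.29. *ESCO2*, which acetylates cohesin as forks pass, measured 66.6, 68.0 and 72.8 CPM in S/G2 cells, 1.56, 11.2 and 22.8 CPM in *RRM2*-only cells and 20.7, 28.6 and 30.3 CPM in G2/M-high cells. It thus stood highest in S/G2 in each cow, with log2 differences of 2.00 ± 0.21 and 1.35 ± 0.19 from the neighbours and 6.67 ± 0.21 from the none class. *CDCA5*, which stabilises cohesin on DNA, gave 6.82 against the none class and 1.95 and 1.32 against the neighbours. The condensin subunit *SMC4* was instead 1.46 above the *RRM2*-only class and below the G2/M-high class by 0.69 on the log2 scale (-0.69), and *NCAPH* was 2.39 above the *RRM2*-only class and not called against the G2/M-high class. *STAG2* had the smallest difference from the none class, 0.27, under the fold limit.

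Genes of mitosis were present but not at their full level. All 53 tested genes of the G2/M list were above the none class (median 5.02) and 50 of 53 above the *RRM2*-only class (median 2.46), while 39 of 53 were below the G2/M-high class and 1 was above it (median -0.89). Over all genes 17.1% were above the none class and 3.57% above the *RRM2*-only class. Against the G2/M-high class 6.78% of all genes were below and 7.42% above. *CENPF*, a kinetochore protein made from G2 on, measured 519, 313 and 272 CPM in S/G2 cells, 23.4, 23.7 and 25.6 CPM in *RRM2*-only cells and 1384, 776 and 978 CPM in G2/M-high cells. The 3 classes did not overlap, with log2 differences of 3.91 ± 0.36 and -1.56 ± 0.25. *CCNB2* and *AURKA* gave 3.61 and 4.09 against the *RRM2*-only class and -1.98 and -1.43 against the G2/M-high class. *STMN1*, which binds free tubulin, was the 1 gene above the G2/M-high class, by 0.44 ± 0.14, a call lost with DESeq2, without cow 1 or cow 2 (0.47 and 0.26) and under the limits of 5 UMIs and of mitochondrial share. *KIF11* and *TTK*, a spindle motor and a checkpoint kinase, differed from the G2/M-high class by -0.47 and -0.18, which did not pass. *KIF11*, *DLGAP5* and *KIF2C* were the furthest above the none class, at 6.997, 7.06 and 6.84, and *CCNF* the least at 0.65. *KIF2C* measured only 0, 0.103 and 0.141 CPM in the none class of cows 1, 2 and 3.

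Against the neighbouring classes these counts were smaller without the cow as a block. Against the *RRM2*-only class the fit without it called 1 licensing gene, 0 fork genes, 3 genes of histones and high-mobility group proteins, 1 of recombination, 5 of cohesin and condensin and 43 of the G2/M list higher. Against the G2/M-high class it called 10 licensing, 9 fork, 10 chromatin assembly, 8 G1/S and 8 recombination genes higher and 13 of the G2/M list lower. It called 0 genes of deoxynucleotide supply against the *RRM2*-only class and 3 against the G2/M-high class. Over all 10631 genes it called 135 higher and 8 lower against the former class. Against the latter it called 129 higher and 82 lower. Of the single genes given above, *CLSPN*, *E2F8*, *MYBL2*, *CDCA5*, *NCAPH* and *MCM5* also lost the call against the *RRM2*-only class without the block, and *DBF4*, *CCNA2*, *CDK1*, *E2F8*, *FBXO5*, *ESCO2*, *CDCA5*, *SMC4*, *CENPF*, *AURKA*, *STMN1* and *DUT* that against the G2/M-high class. *RAD51AP1* and *EZH2* kept both calls in every alternative. Against the none class the lists of deoxynucleotides, licensing, fork, chromatin assembly, histones, G1/S, recombination, cohesin and condensin, and G2/M each kept within 1.5 times the count without the block. With the rule applied after thinning, 2 recombination genes were higher than in the *RRM2*-only class in place of 7, and 4 without cow 1 or without cow 2. Over all genes these settings gave 273 of 11265, 275 of 10473 and 278 of 10804 higher.

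**Figure D3:**
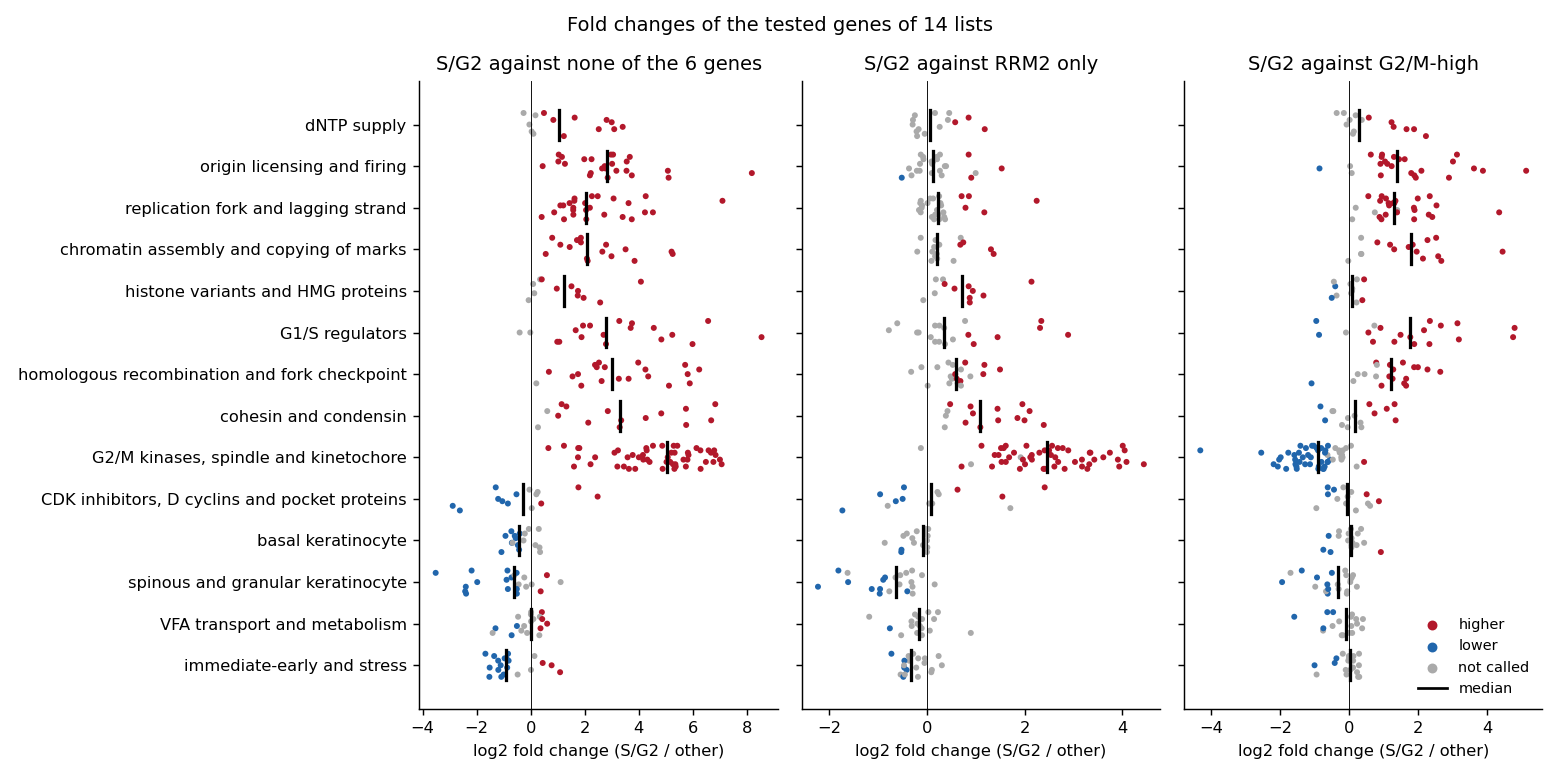
Log2 fold change (horizontal axis) of each tested gene in 14 gene lists, for S/G2 cells against the none, *RRM2*-only and G2/M-high classes, with red for called higher, blue for called lower, grey for not called and a black bar for the median of the list. Replication lists lie to the right in the panels for the none and G2/M-high classes and near 0 in the panel for the *RRM2*-only class, and the G2/M list lies at 5.02, 2.46 and -0.89.

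The S/G2 cells themselves were also described along the 3 genes of division used by the rule. They were split by their UMIs of *CCNB1*, *CDC20* and *UBE2C* into cells with 0, 1 to 2, 3 to 5 and 6 to 9, with 126, 168, 137 and 86 cells in cow 3 and between 9 and 25 cells per bin in the other cows. Because the bins use genes of the rule, the values are a description and do not test a position along the cycle. The bins used unthinned counts and were not matched for depth. The median S/G2 cell with 0 UMIs of these 3 genes held 14487.5 UMIs in all, and that with 8 or 9 held 19147.5. In cow 3 the summed licensing genes went from 21.2 to 18.1, 15.2 and 11.3 UMIs per 10000, while the G2/M list went from 33.9 to 45.8, 62.0 and 80.1. Cow 2 showed the same order in both lists, with 16.3, 15.5, 11.2 and 8.36 for licensing and 29.2, 39.5, 59.9 and 69.8 for G2/M. In cow 1, with at most 11 cells per bin, licensing was highest in the second bin, at 16.0, and lowest in the last, at 7.94, while the G2/M list went from 38.8 to 64.6, 71.8 and 81.3.

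In cows 2 and 3 some single genes followed the lists. *MCM5* went from 2.48 to 2.00, 1.47 and 0.86 UMIs per 10000 over the bins of cow 3 and from 2.03 to 0.49 over those of cow 2. *CENPF* went from 0.88 to 1.93, 3.75 and 5.67 in cow 3 and from 0.38 to 3.93 in cow 2, but stood at 4.73 already in the first bin of cow 1. *HMGB2* climbed from 3.11 to 6.71 in cow 3 and from 2.73 to 6.09 in cow 2. *PCLAF* stayed level, at 3.01, 3.34, 3.67 and 3.08 in cow 3 and between 2.69 and 2.92 in cow 2. The fork list to which it belongs went from 26.9 in the first bin to 19.4 in the last in cow 3, and from 20.2 to 15.2 in cow 2. The S/G2 cells with no *CCNB1*, *CDC20* or *UBE2C* UMI thus had the highest levels of licensing genes in cows 2 and 3, and those near the upper limit the highest summed level of the G2/M list in all 3 cows.

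**Figure D4:**
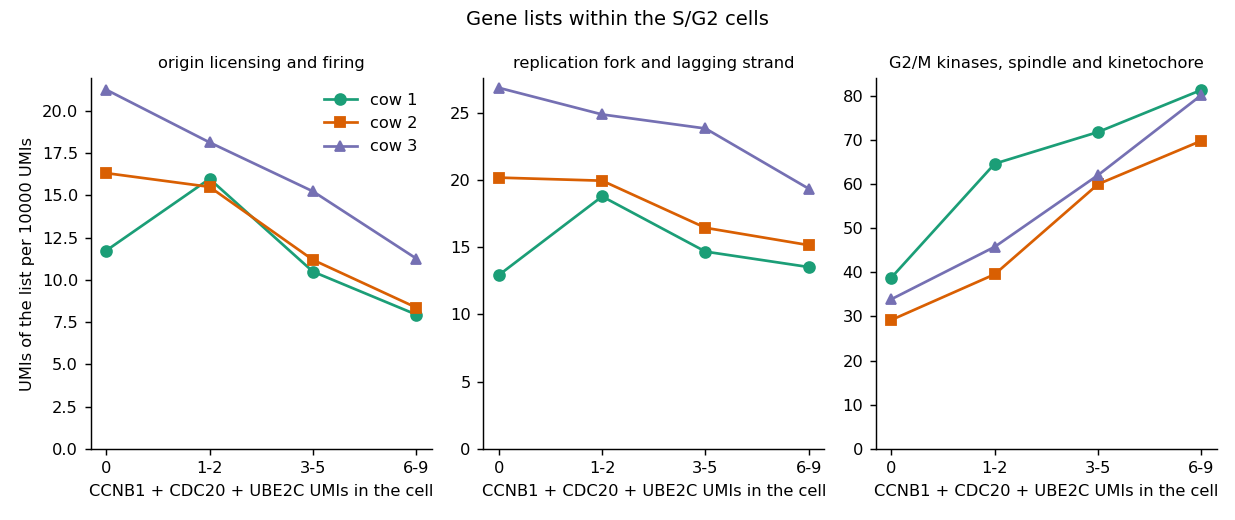
Summed UMIs per 10000 (vertical axis) of the licensing, fork and G2/M lists in S/G2 cells, by the number of *CCNB1*, *CDC20* and *UBE2C* UMIs in the cell (horizontal axis), with 1 line per cow. In cow 3 the licensing genes go from 21.2 down to 11.3 and the G2/M genes from 33.9 up to 80.1.

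Among the brakes and accelerators of G1, *CCND2* was lower in S/G2 cells than in the none class and *CDKN2C* higher. *CCND2*, a D cyclin that drives G1, measured 7.83, 7.15 and 15.5 CPM in S/G2 cells, 63.2, 67.0 and 90.3 CPM in the none class and 25.0, 45.0 and 46.0 CPM in *RRM2*-only cells. It was lower than both in each cow, with log2 differences of -2.62 ± 0.16 (edgeR adjusted p = 2.42e-13) and -1.73 ± 0.19, and differed from the G2/M-high class by 0.20 ± 0.22, which did not pass. *CCND3* and *CCND1* were lower than in the none class, at -1.05 and -0.53, the latter not called without the block or under the limit of 5 UMIs. *CDKN1C*, an inhibitor of cyclin-dependent kinases, measured 2.61, 2.15 and 6.66 CPM against 37.2, 42.2 and 43.0 CPM in the none class (-2.89 ± 0.24), from 60 UMIs in all S/G2 cells. *CDKN1A* was lower too, at -1.21 ± 0.11, a call lost without the block. A pair of inhibitors of the D cyclin kinases went the other way. *CDKN2C* measured 52.2, 50.8 and 30.5 CPM against 6.27, 6.82 and 7.46 CPM (2.47 ± 0.16), and *CDKN2D* differed by 1.76 ± 0.20. In the list of inhibitors, D cyclins and pocket proteins 3 genes were higher and 7 lower of 14 tested (17.1% and 16.2% over all genes). The median was -0.29. Without the block 2 were higher and 4 lower (753 and 296 of 10631 over all genes). *CCNG2* had the smallest difference, 0.04.

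Of the basal keratins, *KRT5* and *KRT14* were slightly higher in S/G2 cells than in the none class and *KRT15* was lower. *KRT5*, a keratin of basal cells, measured 4335, 5059 and 6952 CPM in S/G2 cells and 3456, 4530 and 6800 CPM in the none class, a log2 difference of 0.17 (95% interval 0.07 to 0.27) that stayed under the fold limit. *KRT14* differed by 0.32 ± 0.05, also under it. Of the basal list 0 of 17 genes were called higher and 9 lower (background 16.2%), with a median of -0.43. Apart from *KRT15*, the lower ones were *LAMB3*, *LAMA3*, *ITGB4*, *ITGA2*, *ITGA3*, *ITGA6*, *COL17A1* and *DST*, which encode proteins of attachment to the basement membrane. *LAMB3*, *LAMA3* and *ITGB4*, of laminin and its integrin receptor, differed by -1.08 ± 0.12, -0.94 ± 0.14 and -0.72 ± 0.08, and *KRT15* by -0.56 ± 0.06 (3279, 4613 and 3761 CPM against 4665, 6735 and 5751 CPM). Without the block 3 of the 17 were lower (296 of 10631 over all genes), *KRT15* and *LAMA3* not among them. Within cells of 10000 to 25000 UMIs 5 were (1467 of 10360 over all genes). The cycling neighbours differed less from S/G2. Against the *RRM2*-only class 0 genes were higher and 2 lower (3.57% and 2.29% over all genes), with a median of -0.08. Against the G2/M-high class 1 was higher and 3 lower (7.42% and 6.78% over all genes), with a median of 0.07.

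Of 30 measured genes of the upper layers 21 passed the filter on low counts. Of these, 13 were lower than in the none class and 2 were higher, *FABP4* at 0.60 and *FABP5* at 0.37, both binders of fatty acids (16.2% and 17.1% over all genes). *FABP4* lost its call under 5 of the alternatives and *FABP5* under 9, and both stood near or below 0 in cells of 10000 to 25000 UMIs (0.00 and -0.11). The median was -0.60. *DLK2*, a membrane protein of the Notch ligand family, measured 9.14, 15.0 and 11.1 CPM against 75.2, 107 and 46.3 CPM, a log2 difference of -2.39 ± 0.16 (edgeR adjusted p = 3.81e-12), and it was lower in every cow. Its thinned share was 10.3%, 5.56% and 5.28% of the S/G2 cells and 30.2%, 36.1% and 19.8% of the none class (17.5%, 14.9% and 13.7% against 45.6%, 53.5% and 29.3% before thinning). The 3 largest fitted differences of the list rested on few molecules, since *GJB2* had 8 UMIs in all S/G2 cells, *CALML5* had 7 and *TGM1* had 3. Counted in full, the none class had 1275, 412 and 294 UMIs of these. All 3 are among the 13 called lower. The filter looked at the sums of all classes, so a gene scarce in S/G2 could pass it through other classes. *TGM1* was called lower although in cow 1 it measured 2.61 CPM in S/G2 and 2.22 CPM in the none class. *KRT10* differed by -0.17 and *KRT6A* by -0.24, and neither passed. Against the *RRM2*-only class 9 of 21 were lower and 0 higher (2.29% and 3.57% over all genes), with a median of -0.65. Against the G2/M-high class 7 were lower and 0 higher (6.78% and 7.42% over all genes), with a median of -0.32. Under the alternatives 0 to 13 and 0 to 7 were lower than in these 2 classes. Against the none class without the block, 0 genes of this list were higher and 2 lower (753 and 296 of 10631 over all genes). In cells of 10000 to 25000 UMIs these numbers were 0 and 16 (1609 and 1467 of 10360 over all genes).

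*GJA1*, a connexin of gap junctions, differed several-fold between cows. It measured 43.1, 17.2 and 4.48 CPM in S/G2 cells, 120, 44.0 and 31.6 CPM in the none class, 131, 49.3 and 14.05 CPM in *RRM2*-only cells and 85.8, 101 and 20.2 CPM in G2/M-high cells. S/G2 was the lowest of the 4 classes in each cow, although the ranges overlapped, with log2 differences of -1.98 ± 0.33, -1.62 ± 0.40 and -1.94 ± 0.37 (edgeR adjusted p = 2.25e-05, 0.0108 and 0.000432). None of the 3 differences passed without the block. That from *RRM2*-only cells no longer passed without cow 1, in cells of 10000 to 25000 UMIs or when the rule was applied after thinning. After thinning the difference from G2/M-high cells turned to 0.27 and was not called, with cow 3 alone in that class. The thinned share of cells with a *GJA1* UMI was 17.9%, 6.94% and 2.15% in S/G2 and 15.3%, 5.20% and 4.70% in the none class (22.5%, 12.2% and 4.84% against 20.0%, 7.64% and 6.87% before thinning). This share was thus lower in S/G2 in cow 3 and not in cows 1 and 2, and it gives no order.

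**Figure D5:**
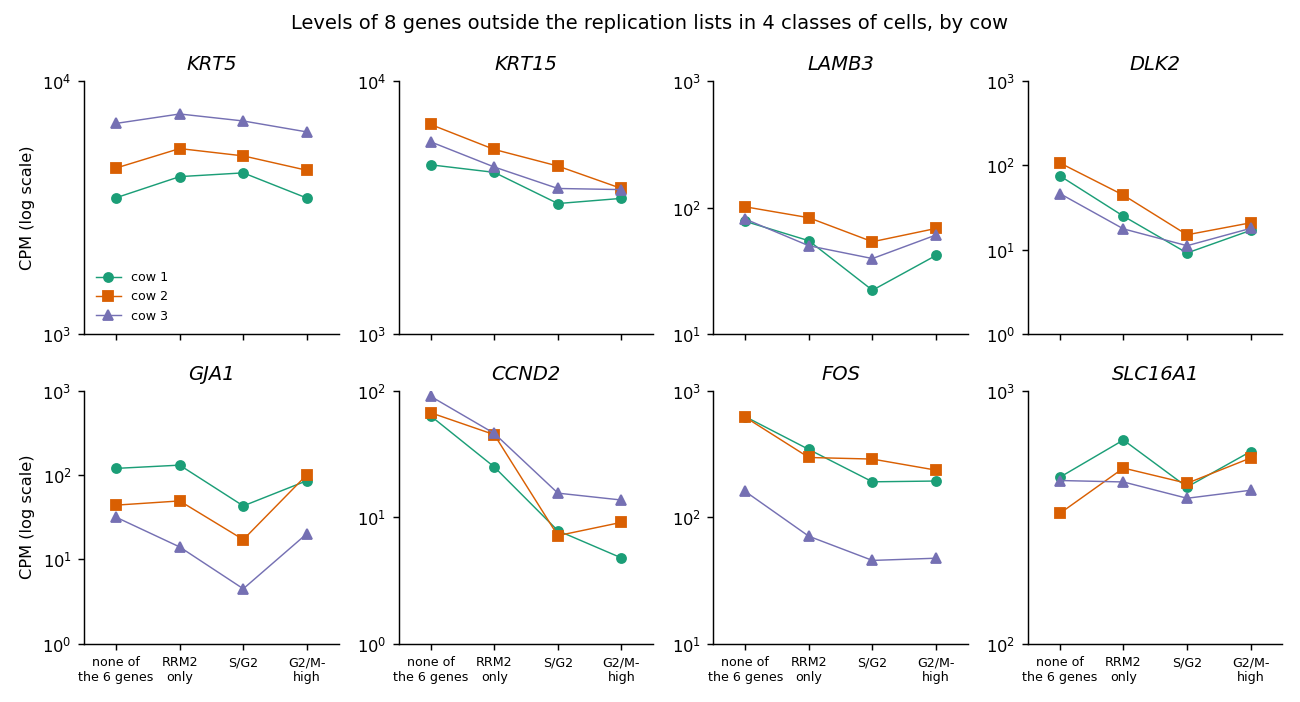
Levels of 8 genes outside the replication lists (CPM, log scale) in the none, *RRM2*-only, S/G2 and G2/M-high classes, with 1 line per cow. *KRT5* and *SLC16A1* vary little between the classes, *DLK2* and *CCND2* drop from the none class to S/G2 in all 3 cows, and *GJA1* is lowest in S/G2.

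Genes that take up volatile fatty acids, the energy source the rumen draws from microbial fermentation, and turn them into ketone bodies were mostly not called against the none class. *SLC16A1*, a monocarboxylate transporter, measured 416, 431 and 376 CPM in S/G2 cells and 455, 327 and 442 CPM in the none class, and the ranges overlapped. The log2 difference was 0.01, with an interval of -0.20 to 0.22. Of 18 tested genes of the list 4 were higher and 3 lower, with a median of 0.01, which is near the 17.1% and 16.2% over all genes and no result about the list. *SLC26A2*, an anion exchanger, was the clearest, at 15.7, 8.58 and 9.33 CPM against 41.4, 21.1 and 23.3 CPM (-1.31 ± 0.16), *SLC4A7* differed by -0.71 and *SLC4A9* by -0.51. *SLC9A3* had 4 UMIs in all S/G2 cells. Without the block 0 genes of the list were called higher or lower (753 and 296 of 10631 over all genes). The higher ones were *HMGCS1*, *SLC4A2*, *ACAT1* and *ACAT2*, at 0.61, 0.42, 0.41 and 0.36, and 2 of them were called without cow 1 and 0 without cow 2 or in cells of 10000 to 25000 UMIs.

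Immediate-early genes, which respond within minutes to stimulation or to tissue dissociation, were lower in S/G2 cells, 14 of 20 genes of the immediate-early and stress list against 3 higher (16.2% and 17.1% over all genes), with a median of -0.93. *FOS* measured 191, 288 and 45.6 CPM against 624, 618 and 160 CPM in the none class (-1.52 ± 0.10). *JUNB* measured 158, 505 and 99.4 CPM against 682, 1276 and 250 CPM (-1.53 ± 0.11), and *ATF3* differed by -1.68 ± 0.14. Each gene was lower in each cow, while the cows differed by more than the classes, cow 3 being lowest in all 3 genes. Without the block 0 of the list were lower and 1 was higher than in the none class (296 and 753 of 10631 over all genes). Against the *RRM2*-only class 5 of 20 were lower and 0 higher (2.29% and 3.57% over all genes). The median was -0.32, and 0 to 8 were lower under the alternatives. Against the G2/M-high class 3 of 20 were lower (6.78% over all genes). That number was 1 without cow 3 or with DESeq2 (223 of 8027 and 554 of 10631 over all genes). *FOS* and *JUNB* differed from the G2/M-high class by 0.10 and 0.27, which did not pass. The 3 genes above the none class were chaperones, *HSPA8* at 1.08 ± 0.10, *HSP90AA1* at 0.77 and *HSPH1* at 0.44.

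Markers of immune cells, fibroblasts, endothelium and muscle were near 0. Of 20 measured markers 7 had 0 UMIs in the S/G2 cells, among them *COL1A1*, *COL3A1*, *DCN* and *MYH11*, and the summed level was 0.190 to 0.275 UMIs per 10000 in the S/G2 cells and 0.227 to 0.430 in the none class. Only 4 passed the filter on low counts. *CD14* had 109 UMIs in the S/G2 cells and was lower than in the none class at -0.69, and *VWF* had 10 UMIs and was lower at -1.48. Neither was called without the block. *CD52* differed by -0.34, which did not pass.

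Outside the lists and among genes of at least 20 CPM with 1 direction in all cows, *FOXM1* was furthest above the none class. This transcription factor of the G2/M program measured 30.0, 27.9 and 17.3 CPM against 0.0965, 0.161 and 0.0937 CPM (log2 fold change 7.40 ± 0.30). *IQGAP3*, *MXD3*, *ASPM*, *KNL1* and *PBK* were 6.74, 6.46, 5.78, 5.71 and 5.62 above the none class, and ENSBTAG00000020100, which has no symbol in the files, was 6.26 above. *KNL1* is part of the kinetochore, and *ASPM* works at the spindle poles. The genes furthest below were *KRT6B* at -2.74, *RND1* at -2.64, *GPNMB* at -2.32, *CIDEA* at -2.22, *DLL1* at -2.11, *THBS1* at -2.07, *FBP2* at -2.05 and *DBP* at -1.90. *KRT6B* measured 0, 5.01 and 7.51 CPM in S/G2 cells against 1.03, 12.3 and 65.7 CPM, and *RND1* 1.31, 15.0 and 0.485 CPM against 10.4, 88.7 and 3.51 CPM, so that the cows differed widely within a class. *KRT6B*, *RND1*, *GPNMB* and *THBS1* were not called without the block. *DLL1*, a Notch ligand, measured 7.83, 5.72 and 15.8 CPM against 52.5, 89.8 and 47.5 CPM, lower in every cow. *DBP*, a factor of the circadian output, measured 1.31, 7.87 and 12.2 CPM against 15.6, 49.4 and 39.5 CPM.

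With the same 2 conditions, the genes furthest above the *RRM2*-only class were *KIF23*, *IQGAP3*, *ASPM*, *AURKA*, *TTK* and *CDCA3*. Their log2 differences were 4.44, 4.36, 4.35, 4.09, 4.05 and 4.01. *KIF23*, *IQGAP3*, *ASPM* and *TTK* measured 0 CPM in the *RRM2*-only cells of cow 1 and at most 3.12 CPM in those of cows 2 and 3. The sizes of these folds thus rest on few molecules. Those furthest below, under these conditions, were *BPIFA2C* at -1.82, *CCND2* at -1.73, *GJA1* at -1.62, *FBP2* at -1.53, *CBR3* at -1.25 and *TMEM79* at -1.13. *BPIFA2C* and *TMEM79*, like *GJA1* on the list of upper layers, were not called without the block. *CBR3*, a carbonyl reductase, measured 17.0, 25.0 and 29.7 CPM in S/G2 cells and 71.8, 59.3 and 64.4 CPM in *RRM2*-only cells, which did not overlap (-1.25 ± 0.14). *FBP2*, a fructose bisphosphatase, measured 6.53, 9.30 and 5.45 CPM against 28.1, 22.5 and 15.7 CPM (-1.53 ± 0.19).

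Again among genes of at least 20 CPM with 1 direction in all cows, those furthest above the G2/M-high class were *MCM3*, *MCM6*, *MCM2*, *MCM4*, *MCM5* and *ZNF367*, the last of which measured 17.0, 30.8 and 31.5 CPM in S/G2 cells and 5.83, 6.51 and 3.47 CPM in G2/M-high cells (2.77 ± 0.23). Furthest below it were *TNFAIP8L1*, *PIMREG*, *TUBA1C*, *CDKN3*, ENSBTAG00000037775 and *CENPA*. *TNFAIP8L1* measured 5.22, 5.72 and 1.33 CPM against 64.6, 56.0 and 51.7 CPM (-4.52 ± 0.27), although the difference from the none class was 1.40 ± 0.43. That difference was not called without the block, without cow 1 (1.18), with the stricter rule or under the limits of 5 UMIs and of mitochondrial share. *PIMREG* differed by -4.30, *CDKN3* by -3.31 and *CENPA*, the histone H3 of centromeres, by -2.54. *TUBA1C*, a tubulin, measured 7.83, 20.0 and 6.79 CPM in S/G2 cells and 101, 95.05 and 119 CPM in the G2/M-high class (-3.64 ± 0.24). It differed from the none class by -1.07 ± 0.26, a call lost without the block and without cow 3 (-0.36), unlike *TUBA1B*, which was 3.44 above the none class and differed from the G2/M-high class by 0.22. Both belong to 1 multigene family, and whether the counting split reads between its members was not tested.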

How the data were processed

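Single-cell libraries of the rumen epithelium of 3 Holstein cows (10x droplets, 1 library per cow) were analysed. The authors made the deposited UMI counts per gene and cell with Cell Ranger 3.1.0 on the ARS-UCD1.2 build with Ensembl annotation, and removed cells by genes, UMIs, mitochondrial share and DoubletFinder. No further doublet call was made. The deposited log-normalized values are the natural log of 1 plus the UMIs per 10000 of the cell, and the names of their 19533 rows gave the gene names, as 0 rows differed from the matrix beyond 1e-06. The barcode suffix was read as the number of the cow.

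The members, gene lists and naming rule were chosen with earlier results of these data known. Named genes were *PCLAF*, *HMGB2* and *PCNA*, the 3 largest differences from the none class in each list, the smallest in each cell cycle list, the 8 largest in each direction outside the lists, and the 6 largest in each direction against the other 2 classes. The last 2 sets held called genes of at least 20 CPM with 1 direction in all cows. Other genes were named after their values were seen, and some genes that the rule picked are not reported here.

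UMI counts were summed per cow and class into 15 sums of 613675 to 79849401 UMIs, which set the precision. edgeR 4.0.16 (R 4.3.3) was run with TMM scaling, filterByExpr, the quasi-likelihood test, the cow as a block and Benjamini-Hochberg adjustment over 10631 genes, and tested on simulated counts. The block was used because the sums compared come from the same animal: deviations from the class means correlated at 0.523, 0.564 and 0.652 between S/G2 and none sums of 1 cow, and at -0.291 on average between cows. Centring on the class means ties the latter value to the former ones, so it adds no support for the block. DESeq2 1.42.0, no filter, no block, each cow left out, the 2 classes alone, other class limits, classes made from thinned counts and a log2 fold limit of 1 were the alternatives. In the thinned alternative only the rule used thinned counts, while the sums compared kept all UMIs of the chosen cells. It held 26, 34 and 241 S/G2 cells in cows 1, 2 and 3. The thinned shares of cells with a UMI instead kept the main classes and counted thinned UMIs. The planned search for promoter motifs was not run, as no promoter sequences were used here.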

Additional observations from a re-analysis of the deposited data

How the results depend on the processing

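The numbers of genes higher and lower depended on the cow as a block and on the fold limit. With no replicate block they were 753 and 296 against the none class, 135 and 8 against *RRM2*-only cells and 129 and 82 against G2/M-high cells, in place of 1815 and 1718, 380 and 243, and 789 and 721. Of 96 results on named genes, 76 kept their direction and their side of the threshold without the block. With a log2 fold limit of 1 the numbers were 714 and 520, 196 and 41, and 324 and 174. With the rule applied after thinning, those against G2/M-high cells were 278 and 196, but there the G2/M-high class was 69 cells of cow 3 alone, assumed to vary like the other sums. Leaving out 1 cow gave 1135 to 1720 genes higher and 1040 to 1851 lower against the none class, 275 to 293 and 129 to 139 against *RRM2*-only cells, and 281 to 682 and 223 to 725 against G2/M-high cells, the fewest against the none and G2/M-high classes without cow 3. DESeq2, no filter, the 2 classes alone, the depth window, the stricter rule, the limit of 5 UMIs and the mitochondrial limit moved each number by less than 1.5 times. With no filter the median log2 difference from the none class over all genes was -0.27.

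Of the 96 results, 69 kept direction and call under every alternative. Of 1142 values 1084 did, 45 lost the call, 2 gained it and 11 changed sign. The sign changes were those of *PNP* (-0.0250 with no filter, -0.18 in cells of 10000 to 25000 UMIs, -0.0322 with the stricter rule, -0.0640 after thinning), *UBE2T* (-0.0262 under 5 UMIs) and *CCNG2* (-0.0113 with no filter, -0.20 under 5 UMIs, -0.13 at a mitochondrial share under 20%), and, with 1 cow left out, of *PNP* (-0.0423 to 0.0386), *TFDP2* (-0.12 to 0.0102) and *CCNG2* (-0.31 to 0.67). None of these genes was called in the main comparison. The cause was not tested. Cows 1 and 2 had 40 and 74 S/G2 cells, which limits low genes.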

Other observations

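Under other limits the share of S/G2 cells was highest in cow 3 each time. In cells of 10000 to 25000 UMIs it was 1.69%, 1.30% and 9.79% in cows 1, 2 and 3. With at least 2 UMIs of *RRM2* and 4 of *TOP2A* and *MKI67* it was 0.772%, 0.554% and 2.73%. With the rule applied after thinning every cell to 5000 UMIs it was 0.934%, 0.474% and 2.60%. In cells with a mitochondrial share under 20% it was 0.549%, 1.00% and 5.18%, from 11, 73 and 488 S/G2 cells, so that cow 1 fell below cow 2 there.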
